A study of Mus musculus with 18 samples.

Results

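The 10 genes described here belong to the retinoid (visual) cycle, and their symbols were looked up among the 54532 genes of the count tables of 18 libraries of sorted mouse cones. A visual pigment is an opsin bound to 11-cis-retinal. Light turns that chromophore into all-trans-retinal, which photoreceptors clear and reduce to retinol, and the pigment epithelium makes it into 11-cis-retinal again. Müller glia are thought to run a second cycle that serves cones. The 10 genes were divided by the cells they are usually found in. Rdh8, Rdh12, Rbp3 and Abca4 are photoreceptor genes, and Rdh10, Dhrs3, Retsat, Rlbp1, Rgr and Rpe65 are the other 6, of which Rlbp1, Rgr and Rpe65 are known chiefly from Müller glia or pigment epithelium.

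All animals were wildtype for retinal degeneration genes, and 1 retina gave the cones of each library. The groups were 6 control and 6 Txnip retinas of BALB/c, an albino strain, at postnatal day 21, and 3 control and 3 Txnip retinas of C57BL/6J, a pigmented strain, at postnatal day 35. Every eye, controls included, received AAV8-SynP136-H2BGFP at birth, a vector that labels cone nuclei green for sorting, and Txnip eyes also received AAV8-RedO-Txnip, which expresses Txnip, a regulator of glucose uptake, from a red opsin promoter active in cones. Per the paper, C57BL/6J also carries a null mutation in the gene Nnt, and BALB/c does not. The comparisons ask how the transferred Txnip changes RNA in healthy cones, and what differs between the strains. The strains were taken at different ages, so strain, age and any batch that goes with them cannot be told apart, and the labels do not say which retinas came from the same mouse, so p-values measure the spread between these samples.

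The libraries held 647712 to 5172156 counted read pairs. Txnip was at 0 to 1.48 CPM (read counts scaled to the library size) in the 9 control libraries and at 821 to 1969 CPM in the 9 Txnip libraries. The 11 cone markers took 3.62% to 9.58% of the counts in each library. Control replicate 1 and Txnip replicate 2 of C57BL/6J stood apart, with 1.39% and 0.962% of counts on 9 rod markers, against 0.110% to 0.281% in the other 16 libraries. Results that rest on those libraries are given with and without them.

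The promoters of members at opposite ends of the range of levels are shown first, from 250 bases before to 50 bases after the RefSeq start site in GRCm38.p6. Rbp3 was the most abundant member, Abca4 was called between the strains with and without the 2 libraries that stand apart, and Rpe65 was nearly undetected. Capitals mark the letters TAATCC read on either strand (here GGATTA), the core of the site bound by Crx, a homeobox factor of photoreceptors. The windows are all on the plus strand, at chr14:33953753-33954052 for Rbp3, chr3:122044210-122044509 for Abca4 and chr3:159598931-159599230 for Rpe65.

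Rbp3: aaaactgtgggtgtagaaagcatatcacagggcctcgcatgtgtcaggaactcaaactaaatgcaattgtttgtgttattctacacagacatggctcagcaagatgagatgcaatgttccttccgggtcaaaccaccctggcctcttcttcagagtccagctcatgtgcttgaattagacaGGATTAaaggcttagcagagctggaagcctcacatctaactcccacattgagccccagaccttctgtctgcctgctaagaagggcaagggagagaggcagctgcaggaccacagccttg

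Abca4: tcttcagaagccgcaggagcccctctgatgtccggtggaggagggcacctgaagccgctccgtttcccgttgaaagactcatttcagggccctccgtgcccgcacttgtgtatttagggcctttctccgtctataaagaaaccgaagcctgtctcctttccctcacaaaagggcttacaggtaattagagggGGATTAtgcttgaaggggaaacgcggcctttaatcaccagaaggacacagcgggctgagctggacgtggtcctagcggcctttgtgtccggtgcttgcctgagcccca

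Rpe65: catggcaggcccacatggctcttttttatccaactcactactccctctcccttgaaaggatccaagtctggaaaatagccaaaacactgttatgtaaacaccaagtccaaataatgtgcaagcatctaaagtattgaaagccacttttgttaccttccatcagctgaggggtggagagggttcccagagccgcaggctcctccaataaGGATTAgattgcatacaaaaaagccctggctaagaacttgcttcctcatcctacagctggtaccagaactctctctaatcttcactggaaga

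The first of these letters lay 69 bases before the start site in Rbp3, 58 before it in Abca4 and 42 before it in Rpe65. RefSeq gave 11 windows for 9 of the 10 members. The letters stood in 4 of the 11, the fourth being that of Rgr, and not in the windows of Rdh12 and Rdh8. Of 32851 promoter windows of the same length in the table, 7.06% held them. Both abundant photoreceptor genes shown and a gene that was nearly undetected carried the same letters. The half-site TGCTGA of Nrl, a leucine zipper factor of rods, was searched on both strands too, and stood in the windows of Rbp3, Rdh12, Rdh8 and Rlbp1 and in 19.5% of all windows. All of these matches began at different positions in their windows, although a site in Rdh12 and one in Rdh8 overlapped in position. A match is a description of the letters only.

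The 4 photoreceptor genes had the highest mean levels of the 10 when counts were scaled by exon length. Rbp3, which encodes the retinoid carrier of the space around the outer segments, averaged 1928 CPM per kb over the 18 libraries and ranked 15 among 14751 genes. Rdh12, a retinaldehyde reductase of inner segments, averaged 118 CPM per kb and ranked 298. Abca4, the flippase that moves retinaldehyde adducts across disc membranes, averaged 40.5 CPM per kb and ranked 1146. Rdh8, the reductase of all-trans-retinal in outer segments, averaged 22.6 CPM per kb and ranked 2201. The range of Rbp3, 1455 to 2564 CPM per kb, did not meet that of Rdh12, 94.8 to 187 CPM per kb, whereas Abca4 at 30.4 to 64.3 and Rdh8 at 8.88 to 40.3 CPM per kb overlapped.

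The other 6 were lower. Dhrs3, which reduces retinal to retinol in many cell types, averaged 6.85 CPM per kb, Rlbp1, the 11-cis-retinoid carrier of Müller glia and pigment epithelium, 6.47, and Retsat, which saturates a double bond of retinol, 5.11 CPM per kb. These levels overlapped over libraries, at 3.36 to 26.2 CPM per kb for Dhrs3, 0.435 to 43.3 for Rlbp1 and 1.27 to 10.8 for Retsat. Rdh10, a retinol dehydrogenase of pigment epithelium and of retinoic acid synthesis, averaged 1.83 CPM per kb.

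**Figure D1:**
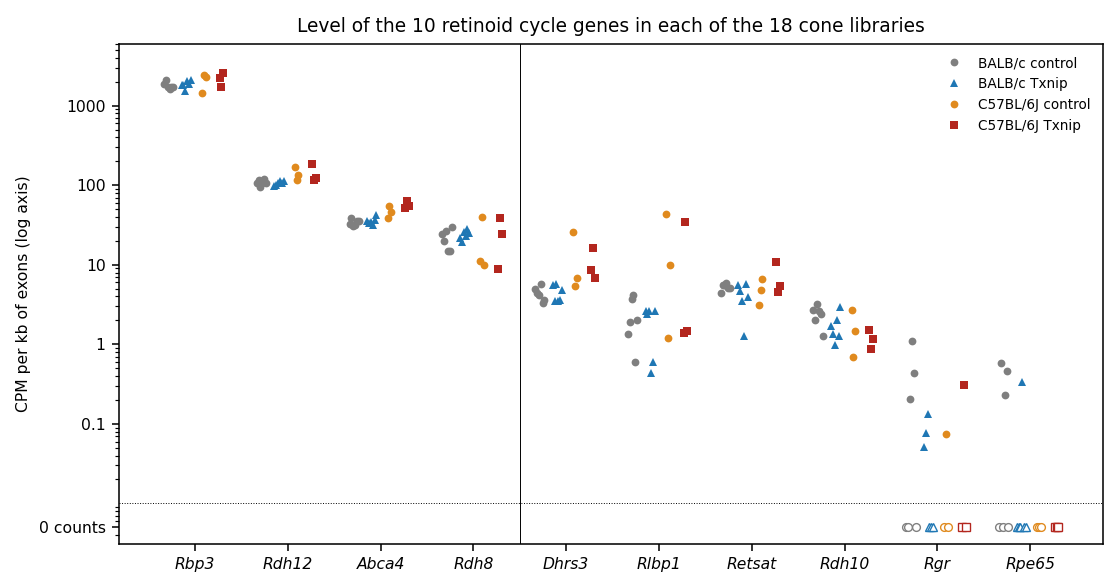
Each point is 1 library's level in CPM per kb of exons on a log axis, for the 10 genes in order of mean level and with the 4 photoreceptor genes to the left of the line; open points at the bottom are libraries with 0 counts. Rbp3 lies above the other 9 genes in every library, and Rgr and Rpe65 lie at 0 in 10 and 14 of the 18.

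Rgr and Rpe65 were at the limit of detection. Rpe65, the isomerohydrolase of the pigment epithelium, had 7 counts in all 18 libraries together, with 0 in each of the 6 C57BL/6J libraries, 0, 2, 0, 1, 3 and 0 in BALB/c control replicates 1 to 6 and 1 in BALB/c Txnip replicate 4. Rgr, a retinal G protein coupled receptor of Müller glia and pigment epithelium, had 31 counts in all, of which 12 and 7 were in BALB/c control replicates 4 and 5. A count of 0 allows up to 3 counts in a library, or 0.582 to 4.65 CPM across these depths, and both genes were removed by the filter on low counts before the fits. Exact permutation tests of their CPM over libraries gave a two-sided p of 0.227 for Rgr and 0.303 for Rpe65 for Txnip in BALB/c and 0.476 for each between control strains, and a difference was not detectable at this depth. Of the 9 pigment epithelium markers, 7 were about as scarce, with 2 to 45 counts in all libraries together, among them Best1, a chloride channel, with 0 to 2 counts in a library and Tyrp1, a melanin enzyme, with 0 to 6. The other 2 had more. Kcnj13, a potassium channel, was counted in all 18 libraries of both strains, with 118 counts in all and 2 to 12 in a library. Dct, another melanin enzyme, had 17 to 111 counts in BALB/c libraries and 0 to 6 in C57BL/6J libraries.

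None of the members passed the test for an effect of Txnip in either strain. The 8 members with enough counts were tested in each comparison with edgeR's quasi-likelihood test and Benjamini-Hochberg adjustment over all genes tested, and a gene was called at an adjusted p under 0.05. In BALB/c 0 of 8 were called, with 0.0166% of all genes called (2 of 12017, and 1372 at an unadjusted p under 0.05), and in C57BL/6J 0 of 8, with 0.0154% called (2 of 12974, and 97 unadjusted). DESeq2 called 0 of the members in both strains as well, with 0.666% of all genes called in BALB/c (77 of 11570) and 0.00565% in C57BL/6J (2 of 35369). The difference between the strains in the effect of Txnip was called for 0 of 8 members and for 0 of 14751 genes in one edgeR fit of all 4 groups, where 706 genes had an unadjusted p under 0.05 and DESeq2 called 0.

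The photoreceptor genes overlapped between control and Txnip libraries in BALB/c, which does not exclude a small effect. Rbp3 ran from 8535 through a median of 9181 to 11131 CPM in the controls and from 8193 through 9816 to 11086 CPM with Txnip. The groups overlapped, and the log2 difference was 0.05 (SE 0.08, adjusted p 0.848, edgeR). Rdh12 ran from 281 through 317 to 354 CPM in the controls and from 288 through 318 to 338 CPM with Txnip. Its groups overlapped too, with a log2 difference of -0.03 (SE 0.08, adjusted p 0.923, edgeR).

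Abca4 ran from 365 through 407 to 472 CPM in BALB/c controls and from 382 through 419 to 514 CPM with Txnip, a log2 difference of 0.06 (SE 0.09, adjusted p 0.846, edgeR) between overlapping groups. Rdh8 ran from 20.7 through 31.1 to 42.3 CPM in the controls and from 27.1 through 33.9 to 39.8 CPM with Txnip. The Txnip libraries lay within the range of the controls, and the log2 difference was 0.10 (SE 0.18, adjusted p 0.866, edgeR).

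Of the less abundant members, Rdh10 had the largest log2 difference with Txnip in BALB/c, -0.58 (SE 0.29, adjusted p 0.460, edgeR), from 5.24 through 10.6 to 13.3 CPM in controls and from 4.04 through 6.31 to 12.4 CPM with Txnip. These groups overlapped. Retsat ran from 15.9 through 18.9 to 20.7 CPM in BALB/c controls and from 4.496 through 15.3 to 20.3 CPM with Txnip, a log2 difference of -0.34 (SE 0.24, adjusted p 0.612, edgeR). Retsat shares 650 exonic bases with Gm45053 on the other strand, and no strand option was set in the counting, so their reads cannot be told apart there. The log2 difference with Txnip in BALB/c was 0.08 (SE 0.21) for Dhrs3 and -0.16 (SE 0.43) for Rlbp1.

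In C57BL/6J the 3 libraries of each group varied more, and the differences with Txnip were less precise. The log2 differences of the photoreceptor genes were 0.08 (SE 0.31) for Rbp3, 0.02 (SE 0.25) for Rdh12, 0.29 (SE 0.23) for Abca4 and 0.24 (SE 0.63) for Rdh8. Those of the others ran from -0.55 (SE 1.28) for Rlbp1 to 0.50 (SE 0.39) for Retsat, and the adjusted p was 1.00 by edgeR for each of the 8. The spread within the groups is given for each gene with the strain comparison.

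Abca4 was higher in C57BL/6J than in BALB/c cones, with and without Txnip. In the comparison of controls 3 of 8 members were called by edgeR and all 3 were higher in C57BL/6J, where 8.03% of all genes were called higher and 17.5% in either direction (2588 of 14751). With Txnip 4 of 8 were called and all 4 were higher, where 8.24% of all genes were called higher and 17.6% in either direction. The median log2 difference over all genes tested was 0.00 in controls and 0.05 with Txnip, and over the 4 photoreceptor genes it was 0.28 and 0.32. Over the 11 cone markers it was 0.32 and 0.38, with 4 and 5 of the 11 called, all of them higher. The members called in controls were Abca4, Dhrs3 and Rlbp1, and with Txnip these 3 and Rdh12. Without the libraries high in rod markers Dhrs3 and Rlbp1 were called in neither comparison and Abca4 in both. Rbp3 was then called in both as well, and Retsat with Txnip.

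**Figure D2:**
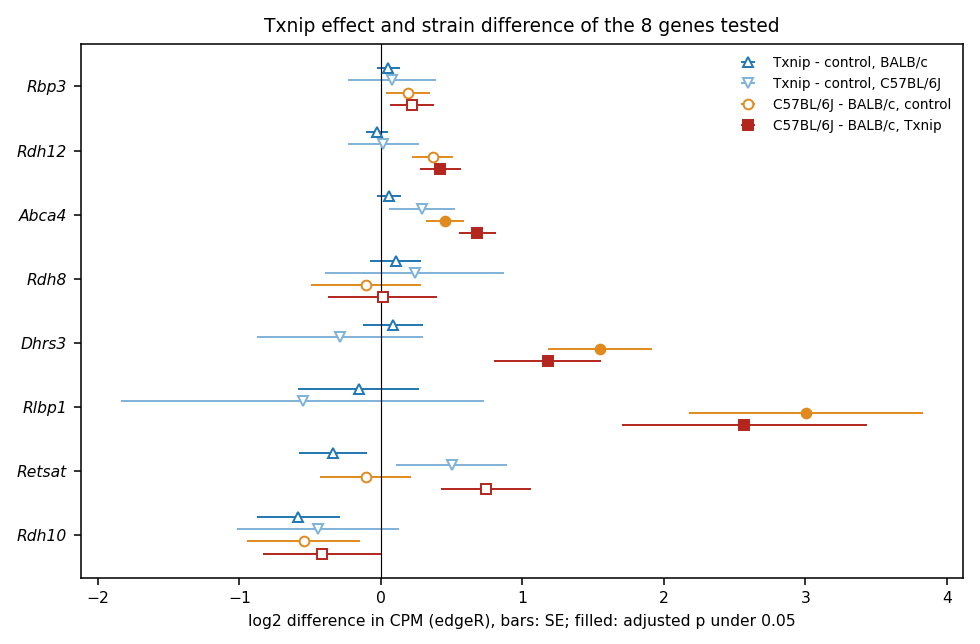
Each marker is the log2 difference of 1 of the 8 tested genes in 1 of 4 comparisons, with its SE as a bar; filled markers have an adjusted p under 0.05. The 7 filled markers all belong to the comparisons between strains and all lie above 0.

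Abca4 was at 462, 667 and 554 CPM in C57BL/6J control replicates 1 to 3 and at 628, 773 and 659 CPM in the Txnip replicates. Only control replicate 1 of C57BL/6J lay within the range of the BALB/c controls, and no Txnip library of C57BL/6J lay within the range of BALB/c Txnip. The log2 strain difference was 0.45 in controls (SE 0.13, adjusted p 0.0206, edgeR) and 0.68 with Txnip (SE 0.13, adjusted p 8.06e-04, edgeR). Without the 2 libraries high in rod markers together it remained called. The call in controls was lost without C57BL/6J control replicate 2 (log2 0.29, adjusted p 0.167), without C57BL/6J control replicate 3 (adjusted p 0.0589), without BALB/c control replicate 3 (adjusted p 0.0542) or when no gene with a count was filtered out (adjusted p 0.0601). With the share of counts on 9 Müller glia markers, Clu included, as a covariate both calls were lost, at 0.30 in controls (adjusted p 0.260) and 0.48 with Txnip (adjusted p 0.153), and with Clu left out of that share both were kept. In all, 29 of 30 alternative fits kept the call with Txnip and 25 of 30 that in controls.

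Rdh12 was at 503, 342 and 397 CPM in C57BL/6J controls and at 554, 343 and 369 CPM in the Txnip libraries. With Txnip every C57BL/6J library was above every BALB/c library, whereas control replicate 2 lay within the range of the BALB/c controls. The log2 strain difference was 0.37 in controls (SE 0.15, adjusted p 0.0859, edgeR) and 0.42 with Txnip (SE 0.15, adjusted p 0.0488, edgeR). The call with Txnip was at the threshold and was lost in 15 of the 18 fits that left out 1 library, down to a log2 difference of 0.17 (adjusted p 0.455) without C57BL/6J Txnip replicate 1.

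Rbp3 was at 7703, 12802 and 12147 CPM in C57BL/6J controls and at 11765, 9198 and 13576 CPM with Txnip. The lowest library of each group was one of the 2 high in rod markers, and both groups overlapped BALB/c. Its log2 strain difference was 0.19 in controls (SE 0.16, adjusted p 0.433, edgeR) and 0.22 with Txnip (SE 0.15, adjusted p 0.363, edgeR). Without both of those libraries the differences were 0.37 (adjusted p 0.0260) and 0.35 (adjusted p 0.0340).

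Rdh8 was the most variable of the photoreceptor genes in C57BL/6J, at 15.5, 56.6 and 14.1 CPM in controls and 12.5, 54.7 and 34.4 CPM with Txnip. C57BL/6J libraries lay both above and below every BALB/c library. C57BL/6J minus BALB/c was -0.11 on the log2 scale in controls (SE 0.39, adjusted p 0.889, edgeR) and 0.01 with Txnip (SE 0.39, adjusted p 0.991, edgeR). The coefficient of variation was 83.9% in controls and 62.4% with Txnip in C57BL/6J, against 28.6% and 13.8% in BALB/c.

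The level of Rdh8 moved with the share of counts on transcripts of the ribosomal RNA locus (Gm26917, Gm42418 and AY036118). That share was 2.04%, 17.2% and 4.05% in C57BL/6J controls, 3.61%, 16.7% and 12.5% in C57BL/6J Txnip libraries and 3.83% to 10.2% in BALB/c. The 3 C57BL/6J libraries with the highest share were the 3 with the most Rdh8. Over the 12 BALB/c libraries the log2 level and the log2 share had a Pearson's r of 0.86 (permutation p 0.00111, adjusted 0.0111 over 16 relations) and a Spearman's rho of 0.59 (permutation p 0.0457, adjusted 0.183). Without the 2 libraries farthest from the median share r was 0.50, so much of the relation rests on BALB/c control replicates 4 and 5. Over the 6 C57BL/6J libraries r was 0.94 (exact permutation p 0.0431, adjusted 0.138) and rho 0.83 (exact permutation p 0.0583, adjusted 0.187), with an r of 0.99 without the 2 farthest.

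As a background, a higher r than that of Rdh8 was found for 1.45% of 14751 genes in BALB/c and for 2.75% of 14739 genes in C57BL/6J. In C57BL/6J Rdh12 went the other way, with an r of -0.87 (exact permutation p 0.0292, adjusted 0.117) and a rho of -0.94 (exact permutation p 0.0167, adjusted 0.133), as did Rdh10, with an r of -0.94 (exact permutation p 0.00139, adjusted 0.0111) and a rho of -1 (exact permutation p 0.00278, adjusted 0.0444). Abca4 had an r of 0.88 (exact permutation p 0.0125, adjusted 0.0667) and a rho of 0.89 (exact permutation p 0.0333, adjusted 0.178) there. Among all genes in C57BL/6J 3.10% had a lower r than Rdh12, 0.719% a lower r than Rdh10 and 6.27% a higher r than Abca4. In BALB/c r was -0.49 for Rdh12 (permutation p 0.105, adjusted 0.281), 0.08 for Abca4 (permutation p 0.803, adjusted 0.917) and -0.36 for Rdh10 (permutation p 0.248, adjusted 0.566). The part of this share in the levels was not tested beyond using it as a covariate, where Abca4 had a log2 strain difference of 0.47 (adjusted p 0.00459) in controls and 0.68 (adjusted p 1.18e-04) with Txnip, and Rdh12 of 0.29 (adjusted p 0.0464) and 0.39 (adjusted p 0.00871).

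**Figure D3:**
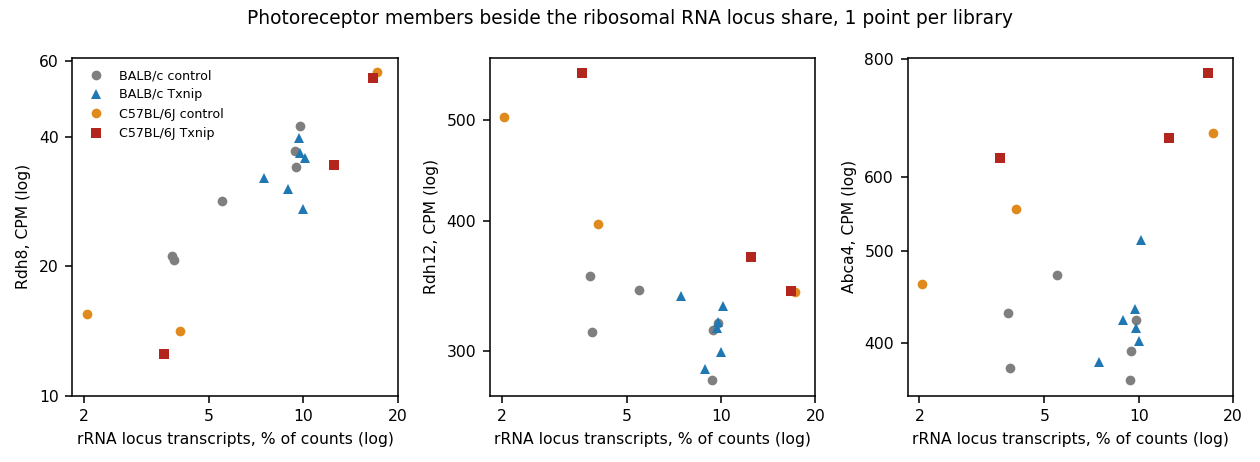
CPM of Rdh8, Rdh12 and Abca4 (log axes) against the percent of counts on transcripts of the ribosomal RNA locus (log axis), 1 point per library coloured by group. Rdh8 is higher in libraries with a higher share in both strains, Rdh12 is highest in the C57BL/6J libraries with low shares, and the Txnip libraries of C57BL/6J lie above all BALB/c libraries for Abca4.

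Dhrs3 and Rlbp1 were called higher in C57BL/6J, but not without the 2 libraries in which both were highest. Those 2 held the most rod markers and, with Clu left out, the most Müller glia markers. Bipolar cell markers were highest in the same 2 libraries, at 0.0298% and 0.0349% of counts on 5 genes, against 0.00549% to 0.0131% in the other 16, and the part of any of these markers in the levels of both genes was not tested beyond the covariates given here. Dhrs3 was at 76.7, 15.8 and 19.96 CPM in C57BL/6J controls and at 25.2, 47.3 and 19.8 CPM with Txnip. In BALB/c it ran from 9.82 through 12.7 to 16.7 CPM in controls and from 10.3 through 12.3 to 17.0 CPM with Txnip. All Txnip libraries of C57BL/6J were above those of BALB/c, while control replicate 2 of C57BL/6J lay within the BALB/c range. The log2 strain difference was 1.55 in controls (SE 0.37, adjusted p 0.00529, edgeR) and 1.18 with Txnip (SE 0.38, adjusted p 0.0333, edgeR).

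Rlbp1 was at 128, 3.58 and 29.1 CPM in C57BL/6J controls and at 4.07, 101 and 4.38 CPM with Txnip. It ran from 1.79 through 5.84 to 12.3 CPM in BALB/c controls and from 1.28 through 7.36 to 7.79 CPM in BALB/c Txnip libraries. Apart from control replicates 1 and 3 and Txnip replicate 2, the C57BL/6J libraries lay within the BALB/c range. Between strains the log2 difference was 3.00 in controls (SE 0.83, adjusted p 0.0144, edgeR) and 2.57 with Txnip (SE 0.86, adjusted p 0.0425, edgeR).

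Of the 9 fixed Müller glia markers, 5 had their 2 highest CPM values in these 2 libraries (Apoe, Glul, Slc1a3, Sox9 and Kcnj10), and Aqp4 and Hes1 had their highest CPM in one of them, C57BL/6J Txnip replicate 2, with 45 and 9 counts. Clu, which made up 40.2% to 92.4% of the counts of the list, went the other way between the strains, at 324 to 547 CPM in C57BL/6J and 739 to 1086 CPM in BALB/c. The mean share of all 9 was lower in C57BL/6J, at 0.105%, 0.0362% and 0.0702% of counts in controls and 0.0600%, 0.0710% and 0.0416% with Txnip, against 0.0946% to 0.119% in BALB/c, and of the C57BL/6J libraries control replicate 1 alone lay within the BALB/c range. Between control strains the difference in that mean share was not called (exact permutation p 0.0714, adjusted 0.190 over the marker lists). Vim, an intermediate filament, was highest in BALB/c Txnip replicate 3, at 28.1 CPM, and Hes1, a Notch target, was at 0 in C57BL/6J control replicate 1, the other of the 2.

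Without Clu, which was left out after its values were seen, the other 8 markers took 0.0540%, 0.00607% and 0.0170% of counts in C57BL/6J controls, 0.00616%, 0.0425% and 0.00760% in C57BL/6J Txnip libraries, 0.00927% to 0.0158% in BALB/c controls and 0.00882% to 0.0107% in BALB/c Txnip libraries. Slc1a3, the glial glutamate transporter, had 157, 4 and 48 counts in C57BL/6J controls and 5, 142 and 3 with Txnip. Glul, the glutamine synthetase of Müller glia, had 244, 41 and 87 counts in the same controls and 21, 352 and 53 with Txnip. Sox9, a glial transcription factor, was at 0 in C57BL/6J control replicate 2 and in Txnip replicates 1 and 3. The 3 libraries with the highest share of the 8 markers were the 3 with the most Rlbp1. In a bulk library fewer cells of a type and less RNA per cell cannot be told apart.

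Both calls rested on those libraries. Without C57BL/6J control replicate 1 and Txnip replicate 2 together the log2 strain difference of Rlbp1 was 1.30 in controls (adjusted p 0.134, edgeR) and -0.48 with Txnip (adjusted p 0.679), where the direction turned. That of Dhrs3 was 0.48 (adjusted p 0.236) and 0.73 (adjusted p 0.0502). With the share of the 8 Müller glia markers as a covariate Rlbp1 was not called, at 0.87 (adjusted p 0.0839) and 0.36 (adjusted p 0.556), and Dhrs3 was called at 0.85 (adjusted p 0.0174) and 0.87 (adjusted p 0.0102). With the share of all 9 both were called, Rlbp1 at 4.53 (adjusted p 3.30e-05) and 5.78 (adjusted p 8.38e-05) and Dhrs3 at 2.27 (adjusted p 1.54e-05) and 2.59 (adjusted p 1.62e-04).

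**Figure D4:**
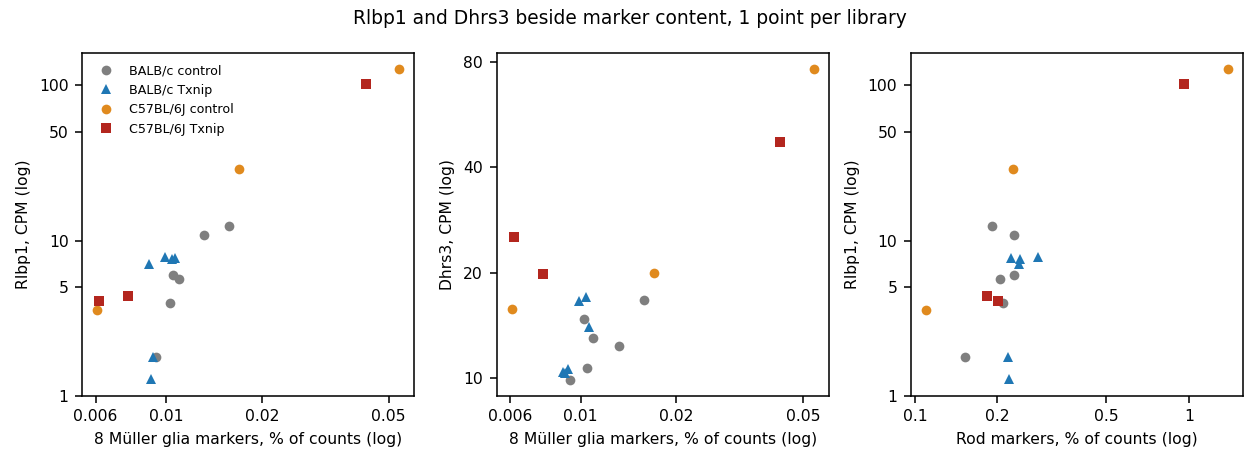
CPM of Rlbp1 and Dhrs3 against the percent of counts on 8 Müller glia markers, and of Rlbp1 against the percent on 9 rod markers, 1 point per library on log axes. C57BL/6J control replicate 1 and Txnip replicate 2 lie at the upper right in each plot, with Rlbp1 at 128 and 101 CPM.

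Retsat and Rdh10 were not called between the strains. Retsat was at 11.2, 17.2 and 23.3 CPM in C57BL/6J controls and 38.3, 16.1 and 19.4 CPM with Txnip, groups that overlapped those of BALB/c. Its log2 strain difference was -0.11 in controls (SE 0.32, adjusted p 0.861, edgeR) and 0.74 with Txnip (SE 0.32, adjusted p 0.117, edgeR), and the latter was called without the 2 libraries high in rod markers (0.95, adjusted p 0.0357). Rdh10 was at 11.2, 2.86 and 6.10 CPM in C57BL/6J controls and at 6.24, 3.67 and 4.85 CPM with Txnip. Its groups overlapped as well, and its log2 strain difference was -0.54 (SE 0.40, adjusted p 0.381, edgeR) in controls and -0.42 (SE 0.42, adjusted p 0.544, edgeR) with Txnip.

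Beyond the 10 members, 36 other genes of retinol handling and retinoic acid signalling were listed, and 19 of them were tested between the strains. The largest differences were in Stra6 and Lrat, which take up and store retinol and were lower in C57BL/6J. In controls 2 of the 19 were called by edgeR, both lower, where 9.52% of all genes were called lower. With Txnip 2 were called lower and 2 higher, where 9.38% and 8.24% of all genes were called. Among genes with Txnip's effect tested, none of the 12 tested in BALB/c was called, nor any of the 16 in C57BL/6J.

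Stra6, the cell-surface receptor for retinol bound to its plasma carrier, was at 7.93, 11.8 and 14.4 CPM in C57BL/6J controls and at 14.4, 9.91 and 12.7 CPM with Txnip. It ran from 43.1 through 57.7 to 66.1 CPM in BALB/c controls and from 43.0 through 50.5 to 57.3 CPM with Txnip. The strains did not overlap, and every alternative fit kept the call. On the log2 scale C57BL/6J minus BALB/c was -2.30 in controls (SE 0.21, adjusted p 7.54e-08, edgeR) and -2.005 with Txnip (SE 0.21, adjusted p 4.23e-07, edgeR).

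Lrat, the enzyme that esterifies retinol for storage, had 0, 1 and 0 counts in C57BL/6J controls and 4, 2 and 0 with Txnip. In BALB/c it had from 3 through 10 to 31 counts in controls and from 2 through 5.5 to 20 with Txnip. Per counted pair it was 45.1 times as high in BALB/c as in C57BL/6J controls (exact interval for counting error, 7.85 to 1803), and 5.98 times with Txnip (2.54 to 17.1). It was called in both, with an adjusted p of 0.00176 in controls and 0.0413 with Txnip by edgeR, and the second call was lost without any 1 of BALB/c Txnip replicates 3 to 6 or C57BL/6J Txnip replicates 2 and 3, and with the share of the 9 Müller glia markers as a covariate (adjusted p 0.469). In all, 17 of 28 alternative fits kept it. Markers of the pigment epithelium, where both genes are known to act, took 0.00145% to 0.00435% of counts in BALB/c and 0.000240% to 0.000610% in C57BL/6J libraries. In BALB/c most of that was Dct, and their part in the result was not tested. Kcnj13 had 2, 12 and 8 counts in C57BL/6J controls and 8, 8 and 7 with Txnip, against 2 to 12 in BALB/c, and the other 7 markers and Rpe65 had 0 to 9 in any library of either strain.

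Dgat1, which can also esterify retinol, and Rxrg, a retinoid X receptor of cones, were higher in C57BL/6J with Txnip. Dgat1 was at 43.9, 35.1 and 35.8 CPM in C57BL/6J controls and 53.2, 43.3 and 34.8 CPM with Txnip, above 23.2 to 31.3 CPM in BALB/c controls and 12.8 to 29.4 CPM in BALB/c Txnip libraries. Its log2 strain difference was 0.56 in controls (SE 0.21, adjusted p 0.0657, edgeR) and 1.03 with Txnip (SE 0.21, adjusted p 0.00125, edgeR). Rxrg was at 105, 106 and 168 CPM in C57BL/6J controls and 193, 102 and 141 CPM with Txnip, where BALB/c ran from 78.4 to 103 CPM in controls and from 78.5 to 93.8 CPM with Txnip. Its log2 strain difference was 0.49 in controls (SE 0.17, adjusted p 0.0505, edgeR) and 0.78 with Txnip (SE 0.17, adjusted p 0.00249, edgeR). Neither gene's groups overlapped between strains within controls or within Txnip libraries, although Rxrg in C57BL/6J Txnip replicate 2 lay within the range of the BALB/c controls.

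**Figure D5:**
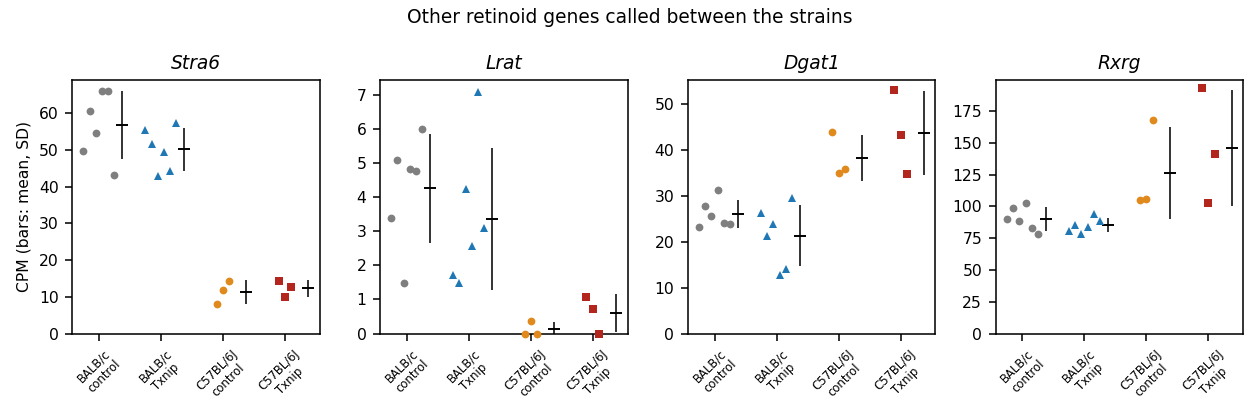
CPM of Stra6, Lrat, Dgat1 and Rxrg in each library by group, with the mean and SD of each group as a bar. Stra6 and Lrat are lower in the C57BL/6J groups, with Stra6 at 7.93 to 14.4 CPM there, and Dgat1 and Rxrg are higher.

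The other abundant genes of the lists were not called in any comparison. Rdh14, a retinol dehydrogenase, averaged 30.3 CPM per kb over the 18 libraries, Degs1, described as a retinol isomerase, 25.0 and Rdh11, a reductase related to Rdh12, 14.2, of which the first 2 lay between Abca4 and Rdh8. In BALB/c Rdh14 was at 39.0 through 53.8 to 81.3 CPM in controls and 21.2 through 25.5 to 51.6 CPM with Txnip, overlapping groups with a log2 difference of -0.84 (SE 0.22, adjusted p 0.117, edgeR). Among nuclear receptors Rxrg averaged 45.2 CPM per kb, and Rara and Rxrb, retinoic acid and retinoid X receptors, averaged 3.46 and 3.39 CPM per kb. Their log2 strain differences in controls were 0.06 (SE 0.33) for Rara and 0.85 (SE 0.39, adjusted p 0.141, edgeR) for Rxrb.

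The genes whose profile over the 18 libraries was most like that of a photoreceptor member were found by the root mean square difference of centred log2 levels, among 9477 genes. For Abca4 they were Cacna1f (0.10), a calcium channel of photoreceptor synapses, Rgs9bp (0.12), an anchor of the phototransduction shut-off complex, and Map7 (0.13). For Rbp3 they were Cnga3 (0.11), the cone cyclic nucleotide-gated channel, Dixdc1 (0.12) and Cdhr1 (0.12), a cadherin of outer segments. For Rdh12 they were Idh3b (0.10), Serf2 (0.10) and Pnrc2 (0.12), and for Rdh8 Thsd7a (0.17), Prrc2c (0.19) and Zfp462 (0.21). The members' own root mean square deviations were 0.32 for Abca4, 0.22 for Rbp3, 0.25 for Rdh12 and 0.59 for Rdh8.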

How the data were processed

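RNA of sorted cones from 18 wildtype mouse retinas was sequenced by a modified Smart-Seq2 protocol. Per the file headers the authors ran featureCounts 1.6.2 on Ensembl exons to count pairs for each gene, and the submitters' processing notes name STAR, DESeq2 and GRCm38.p6. The deposited values were whole-number counts of 54532 genes, without normalization, counted with no strand option. Tables of the authors' own fold changes and p-values were not used. Symbols came from a name table that lacked 123 of the identifiers.

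Counts were tested here in R 4.3.3 with edgeR 4.0.16 (filterByExpr, TMM, glmQLFit and glmQLFTest, Benjamini-Hochberg, threshold 0.05), the effect of Txnip in each strain on its own and the strain comparisons and the interaction in 1 fit of all 4 groups. The fit of all 4 groups shared its estimate of the spread over them, although C57BL/6J varied more. Its common biological coefficient of variation was 26.0%, against 18.0% within BALB/c and 34.3% within C57BL/6J. Standard errors and p-values of the strain differences can therefore be too small. CPM used TMM library sizes over 18 libraries, and log2 levels a prior count of 2. The fits were tested on simulated counts. Marker shares and relations over libraries used two-sided permutation tests in scipy 1.17.1 and R, exact for differences between groups and for relations over 6 libraries, and with 100000 resamples for relations over 12. With 3 libraries against 3 an exact test cannot go below a p of 0.1. Totals ran from 647712 to 5172156 pairs, and floors of 3 counts and 95% intervals cover counting error only. The 36 pairs of libraries within a group all differed by more than sampling noise (smallest chi-square per degree of freedom 1.83), so each counted as 1 replicate.

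The text names all 10 members, the other retinoid genes called in any comparison, the 3 of each list with the highest CPM per kb, and the 3 genes nearest in profile to each photoreceptor member. Members and lists were chosen with earlier results of these data known. Alternatives were DESeq2 1.42.0, its size factors in edgeR, 2 other filters, robust estimation, a block for the replicate number, another set of libraries in the fit, the rod share as a covariate, and leaving libraries out. Covariates for Müller glia markers and the ribosomal RNA locus were added after seeing the data.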

Additional observations from a re-analysis of the deposited data

Results flagged for a closer look

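Of 36 groups of BALB/c libraries examined for a library that stands far from the others, 2 had one, where chance gives about 1 in 20. The C57BL/6J groups, of 3 libraries each, were too small for this rule. The libraries of that strain high in rod markers were therefore not examined by it. Rpe65 in the BALB/c Txnip group was at 0.642 CPM in its highest library, which is 1 count, and at 0 in the other 5. The share of counts on rod markers in the BALB/c Txnip group was 0.281% in its highest library, with the next at 0.242%.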

How the results depend on the processing

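Strain differences of Stra6 kept their side of the threshold under every alternative, and no alternative called a member for an effect of Txnip. The counts of calls moved as follows. For Txnip in BALB/c, where 2 genes were called, DESeq2 called 77 genes (24.7% of them higher), testing all genes with at least 1 count called 1400 (11.8% higher) with 2 other retinoid genes, and requiring at least 10 counts in every library called 0. In C57BL/6J the last 2 filters called 5 and 0 genes, against 2. For the interaction, all genes with at least 1 count gave 186 genes, and leaving out the 2 libraries high in rod markers gave 2. For the strain difference in controls the stricter filter gave 1507 genes and 1 member and in Txnip libraries 1475 genes and 1 member, since it tests fewer genes. Other retinoid genes called in controls rose from 2 to 4 under robust estimation, the rod share, the 8 Müller glia markers as a covariate, or without the 2 libraries high in rod markers. With the share of all 9 Müller glia markers, mostly Clu, as a covariate 1098 genes and 2 other retinoid genes were called between strains with Txnip, and Abca4 was not called (adjusted p 0.260 in controls and 0.153 with Txnip). The cause of these changes was not tested. The replicate numbers did not pair the samples (correlations of -0.10 to 0.14 in BALB/c and -0.05 to 0.07 in C57BL/6J, and 0 samples nearest their own number). With the replicate block the strain difference called 1645 genes and 1 member in controls and 1 member with Txnip, and Rdh8 with Txnip turned to -0.21.

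Log2 values that turned sign did so as follows. In BALB/c with Txnip, the rod share gave -0.13 for Rdh8, 0.0679 for Rdh12 and -0.0924 for Dhrs3, the 9 Müller glia markers -0.21 for Rdh8 and -0.0168 for Rbp3, the 8 markers 0.72 for Rlbp1, and the ribosomal RNA locus -0.18 for Rdh8 and 0.0256 for Rdh12. In C57BL/6J with Txnip, leaving out the 2 libraries high in rod markers gave -0.59 for Rdh8, 0.27 for Rdh10 and 0.31 for Dhrs3, the ribosomal RNA locus -0.30 for Rdh8, 0.10 for Rdh10, 0.26 for Dhrs3 and 0.59 for Rlbp1, the 9 markers -0.0163 for Rbp3, 0.26 for Dhrs3 and 0.77 for Rlbp1, the 8 markers 0.24 for Dhrs3, and all genes with at least 1 count -0.00564 for Rdh12. Between strains in controls, leaving out both libraries gave 0.17 for Rdh8 and 0.11 for Retsat, the rod share 0.0214 and the 8 markers 0.0326 for Retsat, and the 9 markers -0.15 for Rbp3. Between strains with Txnip Rdh8 was at -0.00846 with DESeq2, -0.00977 with its size factors, -0.50 without both libraries, -0.73 with the 9 markers and -0.16 with the ribosomal RNA locus, and the 9 markers gave -0.25 for Rbp3 and 0.55 for Rdh10. Rlbp1 was at -0.48 without both libraries. Without both libraries the difference in marker shares turned to 0.163 for cones and 0.0236 for rods with Txnip in C57BL/6J and to -0.0344 for rods between control strains, in percentage points.

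Leaving out 1 library at a time gave 2 to 258 genes for Txnip in BALB/c with 0 to 1 other retinoid genes, 0 to 1 genes for the interaction, 1605 to 2930 genes, 1 to 4 members and 2 to 4 other retinoid genes between control strains, and 1 to 4 members between strains with Txnip. In BALB/c with Txnip it gave -0.0654 to 0.00641 for Rdh12, -7.56e-04 to 0.0997 for Abca4, -0.0226 to 0.18 for Dhrs3 and -0.38 to 0.11 for Rlbp1. In C57BL/6J with Txnip it gave -0.32 to 1.19 for Rdh8, -0.20 to 0.19 for Rdh12, -0.12 to 0.21 for Rbp3, -0.81 to 0.13 for Rdh10, -0.77 to 0.78 for Dhrs3 and -3.68 to 1.15 for Rlbp1. Between control strains it gave -1.08 to 0.23 for Rdh8 and -0.39 to 0.11 for Retsat, and between strains with Txnip -0.50 to 0.41 for Rdh8 and -0.50 to 3.11 for Rlbp1. Marker shares differed by -2.32 to 0.362 points for cones, -0.384 to 0.280 for rods and -0.0302 to 0.00433 for Müller glia with Txnip in C57BL/6J, and by -0.0344 to 0.607 for rods between control strains. Rgr and Rpe65 were removed by the filter on low counts.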

Other observations

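BALB/c control replicates 4 and 5 together held more counts of 3 scarce retinoid genes than the other 16 libraries did. Rgr had 12 and 7 of its 31 counts there. Aldh1a2, a retinaldehyde dehydrogenase that makes retinoic acid, had 8 and 7 of 28 counts, and 9 more in BALB/c Txnip replicate 3. Dhrs9, a retinol dehydrogenase, had 9 and 6 of 18 counts. These were also the BALB/c libraries with the lowest share of counts on the ribosomal RNA locus, 3.88% and 3.83%, and replicate 4 had the most Slc1a3 and Aqp4 counts of the BALB/c libraries, 40 and 22. These genes were picked after their values were seen.

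The enzymes that degrade retinoic acid were near 0. Cyp26a1 had 5 counts in C57BL/6J control replicate 1 and 3 in C57BL/6J Txnip replicate 2, the libraries with the most rod markers, and 0 in the other 16.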
